A study of Gallus gallus with 3 samples.

Results

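Granulosa cells of the hen's F5 follicle were set against the stages on either side of it, the 6 mm follicle before and the F1 follicle after, to describe transcripts that stood apart in F5. A gene was taken when its log2(FPKM + 1) in the F5 library was at least 1 unit above the values of both other libraries, or at least 1 unit below both. FPKM is a read count made comparable between genes and libraries by dividing it by gene length and library size. Of 12812 genes that reached an FPKM of 1 in any of the 3 libraries, 411 were higher in F5 than in both neighbours (3.21%) and 81 were lower than in both (0.632%). These 492 genes were chosen by their own levels, so their levels are a description, and since each stage has 1 library they carry neither a test nor an error between replicates.

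All 3 libraries came from natural granulosa cells of the ovary of Gallus gallus, with no treatment named in the labels. The 6 mm library was of follicles not yet selected into the preovulatory hierarchy, from hens labelled 10 to 15 months of age. The F5 library was of follicles early in that hierarchy and growing fast (10 to 16 months), and the F1 library of follicles about to ovulate (10 to 17 months). The sources used here do not say how many hens or follicles went into a library, so stage, hen and library cannot be told apart.

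In the hen, follicles are recruited singly from a pool of small yellow follicles into a ranked hierarchy, and a recruited follicle takes up yolk from the blood at a high rate until it ovulates. The granulosa layer lies between the oocyte and a basal lamina, divides to cover the growing surface, and turns from a poorly steroidogenic into a progesterone-producing layer. It signals to the oocyte and to the theca outside the basal lamina through WNT ligands, hedgehog ligands, bone morphogenetic proteins, inhibins and activins.

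Read totals were 14923359 in the 6 mm library, 14137511 in F5 and 14086626 in F1. The 9 granulosa markers looked for, among them FSHR, FOXL2 and INHA, had reads in every library, with a summed FPKM of 2088, 7126 and 5884 in 6 mm, F5 and F1. The 15 entries for theca and smooth muscle markers had summed FPKM values of 1179 (6 mm), 26.4 (F5) and 18.6 (F1), and 6 of them were at 0 in F5, including COL1A1, DCN, LUM and PDGFRA. Surface epithelium markers (9 entries) summed to 313, 36.4 and 7.35 in the same order, and oocyte markers (8 entries) to 247, 50.7 and 1.82. Leukocyte markers (6 entries) summed to 200, 48.6 and 135, and endothelial markers (8 entries) to 137, 74.6 and 141, both lowest in F5. The only erythrocyte marker with an FPKM of at least 1, HBAA, was at 4.23 in 6 mm and at 0 in F5 and F1. None of these markers of other cell types was among the 492 genes. Their part in the results below was not tested, and in bulk RNA fewer cells of a type and less RNA per cell cannot be told apart.

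**Figure D1:**
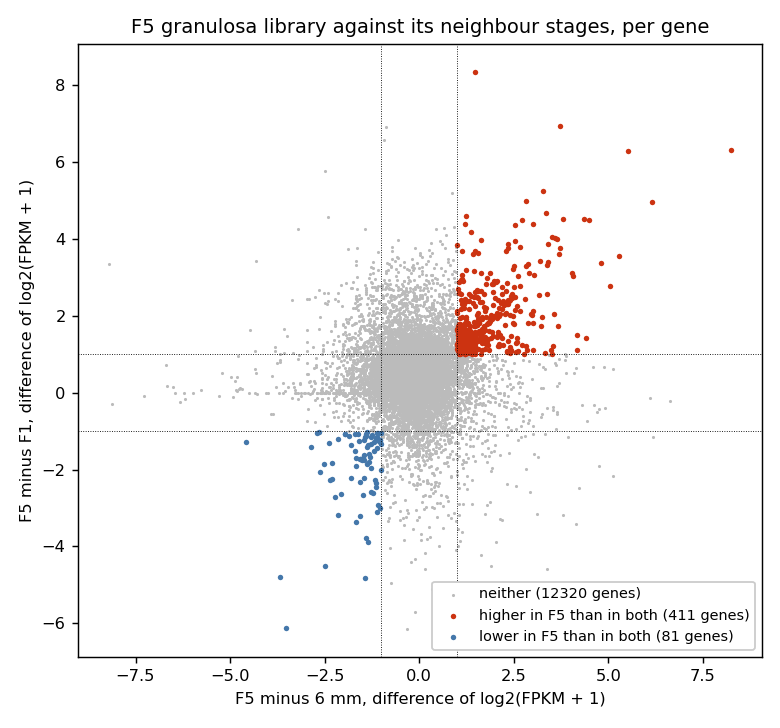
Each point is a gene, placed by the difference of log2(FPKM + 1) between F5 and 6 mm (horizontal axis) and between F5 and F1 (vertical axis), with 1 library per stage. Dotted lines mark differences of 1, and the 411 genes higher in F5 than in both neighbours fill the upper right corner and the 81 lower genes the lower left.

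The 411 higher genes together held 7.15% of the summed FPKM in F5, against 2.18% in 6 mm and 1.89% in F1. The rule that chose them sets the direction of this difference. RLN3 alone gave 6712 of their summed F5 FPKM of 42779, and the unnamed entry Novel00781, given below, gave more. Their median FPKM was 15.2 in F5, 3.54 in 6 mm and 2.48 in F1. Most stood only a short way past the threshold: the distance to the nearer neighbour was between 1 and 2 log2 units for 330 genes, between 2 and 3 for 57 and at least 3 for 24. In 25 genes no read fell in either neighbour. The 81 lower genes were mostly of moderate level, with a median level of 2.17 in F5, 9.97 in 6 mm and 12.6 in F1, and 7 of them had no read in F5. Taken singly, F5 was past the same step above F1 in 2697 genes (21.1%) and above 6 mm in 964 (7.52%), and below F1 in 599 (4.68%) and below 6 mm in 1356 (10.6%).

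The flanking stages were within 1 log2 unit of each other in most of these genes. Of the 411 higher genes, 317 (77.1%) differed by less than 1 log2 unit between 6 mm and F1, against 60.7% of all 12812 genes, of which 32.0% were lower in F1 by that step and 7.26% higher. F1 lay at least 1 unit below 6 mm in 58 of them (14.1%) and above in 36 (8.76%). Among the 81 lower genes, 58 (71.6%) were within 1 unit between the flanks, 18 (22.2%) were higher in F1 and 5 (6.17%) lower. The rule itself narrows this comparison, since it needs both flanks on the same side of F5. Adding 1 to each FPKM also shrinks differences between low values. The higher genes had a median FPKM of 3.54 in 6 mm and 2.48 in F1, against 10.5 and 6.05 over all tested genes.

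**Figure D2:**
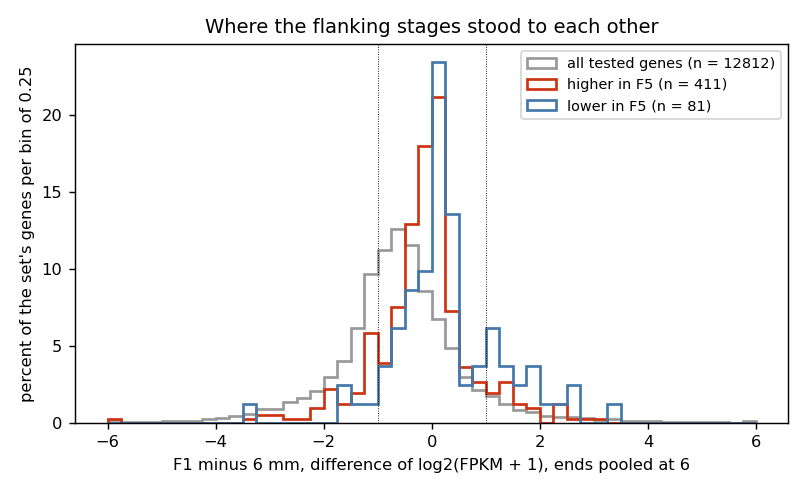
The horizontal axis is the F1 minus 6 mm difference of log2(FPKM + 1), and the vertical axis the percent of each gene set per bin of 0.25. The median was -0.62 over all 12812 tested genes, -0.08 over the 411 genes higher in F5 and 0.16 over the 81 lower genes.

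Genes that bind, release or store fatty acids included the furthest outlying genes of F5. CEL, a bile salt-activated lipase that splits cholesterol esters and triglycerides, had no reads in 6 mm, against FPKM values of 305 in F5 and 2.82 in F1. Against a floor of 3 reads in 6 mm it was at least 2673-fold higher in F5, and it was 108-fold higher than in F1 (exact 95% interval 85.5 to 139, which like all intervals here covers counting error only). FABP5, a cytosolic carrier of fatty acids, stood at 2.52 in 6 mm, 162 in F5 and 1.09 in F1, 64.2-fold above 6 mm (48.5 to 87.0). The related carrier FABP4, on the same chromosome 2, stood at 3.54, 42.6 and 0.150 in that order. PPARG, the nuclear receptor that governs fat storage and whose targets in mammals include FABP4, had FPKM values of 2.50 (6 mm), 40.8 (F5) and 9.14 (F1). F5 was 16.3-fold above 6 mm (13.0 to 20.8) and 4.46-fold above F1 (3.91 to 5.11), so the F1 level of PPARG kept between those of the other libraries. ACACA, which makes malonyl-CoA for fatty acid synthesis, was at 2.47, 12.4 and 0.871, from a short entry on an unplaced scaffold. LPL, the secreted lipase that frees fatty acids from lipoproteins, went the other way, with 147 in 6 mm, 72.1 in F5 and 184 in F1. Of 32 tested entries of the fatty acid list, 5 were higher (15.6%) and 1 was lower, with a median F5 difference from the mean of both neighbours of 0.17, the same as the median of 0.17 over all tested genes. The rest of the list thus did not stand apart from all genes. None of 22 entries for cholesterol synthesis and uptake and none of 22 for steroid hormone synthesis was in either set. Since only 3.21% of all tested genes were higher and 0.632% lower, empty lists of this size do not stand apart from all genes.

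**Figure D3:**
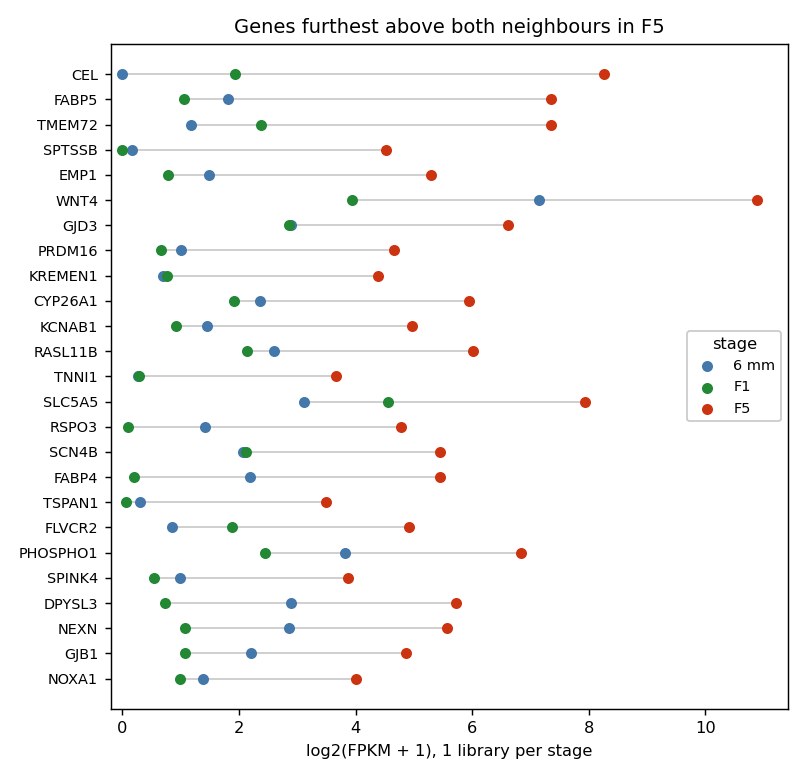
Points give log2(FPKM + 1) in the 6 mm, F5 and F1 libraries (1 library each) for the 25 genes that have a symbol, reach an FPKM of 10 in F5 and stood furthest above the nearer neighbour. CEL, FABP5 and TMEM72 have the widest gaps, and WNT4 has the highest level, at an FPKM of 1885 in F5.

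WNT4, a ligand needed for female gonad development in mammals, was the most abundant of the far outlying genes. Its FPKM values were 141 (6 mm), 1885 (F5) and 14.3 (F1). The F5 level was 13.4-fold above 6 mm (12.9 to 13.9) and 132-fold above F1 (118 to 149), and F1 was the lowest of the 3 libraries. RSPO3, a secreted protein that raises the response of cells to WNT ligands, had 1.67 in 6 mm, 26.4 in F5 and 0.0739 in F1. KREMEN1, a receptor of the WNT antagonist family DKK, stood at 0.611, 19.8 and 0.701, 32.5-fold above 6 mm (18.4 to 63.4). The WNT receptor gene FZD8 was on the other side, at 5.98 in 6 mm, 1.69 in F5 and 6.23 in F1. These opposite directions follow from the rule that chose the genes. FZD8 rested on 56, 15 and 55 reads in 6 mm, F5 and F1, and with a pseudocount of 5 it fell short of the threshold. Among 32 tested WNT entries 3 were higher (9.38%, against 3.21% of all tested genes) and 1 was lower (3.12%, against 0.632%). The list's median difference was 0.41, against 0.17 over all tested genes.

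Hormone and growth factor genes held some of the highest levels. RLN3, a peptide of the relaxin family, had FPKM values of 1268 (6 mm), 6712 (F5) and 1658 (F1), and was 5.29-fold (5.20 to 5.38) and 4.05-fold (3.98 to 4.11) above its neighbours. The gene name column calls this entry RFLB, and the symbol RLN3 comes from the KEGG column. INHBB, the beta B subunit of inhibins and activins, was at 321 in 6 mm, 893 in F5 and 1.74 in F1. Here F5 and 6 mm lay close together compared with the 515-fold gap to F1 (329 to 855). IHH, a hedgehog ligand that in mammals passes from granulosa to theca cells, was at 235, 728 and 83.2. IGF2, an insulin-like growth factor, followed the same order with 50.2, 131 and 6.34. NRG1, a ligand of ERBB receptors, was at low levels of 0.279, 2.09 and 0.354. IGFBP5, which binds insulin-like growth factors, had 81.4 in 6 mm, 35.5 in F5 and 176 in F1, and FGFR2, a receptor of fibroblast growth factors, had 5.003, 1.27 and 3.77. Both were lowest in F5. The list of growth factors and vascular ligands had 3 of 30 tested entries higher (10.0%, against 3.21% of all tested genes). Another 2 were lower (6.67%, against 0.632%), and the list's median was -0.24.

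Within the bone morphogenetic protein and TGF-beta pathway a ligand and inhibitors were set apart. BMP2, a ligand, was at 2.54 in 6 mm, 8.54 in F5 and 0.898 in F1. BAMBI, a pseudoreceptor that dampens signals from these ligands, was at 18.4, 83.0 and 20.1, or 4.50-fold above 6 mm (4.20 to 4.83). Of the chordin-like antagonists, CHRDL2 was higher in F5 (0.421, 5.64 and 0.267) and CHRDL1 was lower (9.85, 2.68 and 11.1). These paralogous antagonist genes therefore stood in opposite sets. With a pseudocount of 5, CHRDL2, CHRDL1 and BMP2 each fell short of the threshold. In all, 3 of 38 tested entries were higher and 1 was lower, and the list's median was 0.14. No entry of the gonadotropin and cAMP list (22) or of the EGF receptor list (17) was in either set, and neither was any of 26 granulosa transcription factors. With 3.21% of all tested genes higher and 0.632% lower, an empty list of this size does not stand apart from all genes.

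Transporters of amino acids were among the higher genes. SLC7A5, the light chain of a transporter of large neutral amino acids, had 2 entries in the files, which may be parts of a single gene. The entry on chromosome 11 was at 15.9 in 6 mm, 90.8 in F5 and 14.4 in F1, and that on an unplaced scaffold at 27.7, 161 and 23.1. Both were between 5.72-fold and 6.99-fold above each neighbour. SLC7A3, a transporter of cationic amino acids, was at 14.3, 33.3 and 14.6, and SLC6A15, a transporter of branched-chain amino acids and proline, at 0.914, 5.13 and 1.04. These 4 of 23 tested entries (17.4%, with SLC7A5 counted under both entries) were higher, against 3.21% of all tested genes. None was lower, against 0.632%, and the list median was 0.54. SLC7A3 was short of the threshold under each of the other scalings tried. With a pseudocount of 5, SLC7A3 and SLC6A15 both fell short. In glucose metabolism, PFKFB3, which makes the activator of phosphofructokinase, was at 38.8 in 6 mm, 188 in F5 and 37.6 in F1, 4.86-fold (4.67 to 5.06) and 5.01-fold (4.80 to 5.22) higher. It was the only one of 30 entries for glucose uptake and glycolysis in either set, or 3.33%, near the 3.21% of all tested genes.

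CYP26A1 and CYP26C1, enzymes that break down retinoic acid, were both higher in F5. CYP26A1 stood at 4.12 in 6 mm, 60.9 in F5 and 2.77 in F1, 14.8-fold above 6 mm (12.8 to 17.1) and 22.0-fold above F1 (18.5 to 26.4). CYP26C1 was at 0.528, 6.88 and 0.495. They lie side by side on chromosome 6, with 1444 bases between them. They were 2 of 18 tested entries for retinoid handling (11.1%, against 3.21% of all tested genes), and no entry was lower. The list's median was -0.33. VDR, the vitamin D receptor, was at 8.18, 23.9 and 6.48. VDR and PPARG were 2 of 29 nuclear receptor entries in the higher set (6.9%, against 3.21%), and no entry was lower.

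Several genes of junctions, channels and transport were several-fold higher in F5. GJD3 and GJB1 encode connexins, the subunits of gap junctions that couple neighbouring cells. GJD3 was at 6.40 in 6 mm, 96.6 in F5 and 6.22 in F1, with F5 15.1-fold (12.1 to 19.0) and 15.5-fold (12.3 to 19.8) above them. The name GJD3 comes from the KEGG column, and the RefSeq table places that gene on another chromosome than the files' entry, so it is less certain. GJB1 was at 3.59, 28.1 and 1.10. Of the channel genes, SCN4B, a sodium channel beta subunit, was at 3.17, 42.6 and 3.36, KCNJ12, an inward rectifier potassium channel, at 0.0653, 12.7 and 3.11, and KCNK5, a potassium channel, at 13.7, 30.6 and 12.7. KCNAB1, a potassium channel beta subunit, was at 1.73, 30.4 and 0.892, and overlaps SSR3, whose reads cannot be told apart from it where counting ignores strand. An entry that the KEGG column names SLC5A5, the sodium iodide symporter, was at 7.63 in 6 mm, 243 in F5 and 22.5 in F1. It lies on an unplaced scaffold, so its name is less certain. FLVCR2, a membrane transporter, was at 0.794, 29.1 and 2.68.

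The other far outlying genes had varied roles. PRDM16, a transcriptional regulator of brown fat identity in mammals, was at 1.02 in 6 mm, 24.3 in F5 and 0.586 in F1, 23.9-fold (19.9 to 28.8) and 41.4-fold (32.5 to 53.5) higher. TMEM72, a membrane protein, was at 1.27, 162 and 4.20, and EMP1, an epithelial membrane protein, at 1.79, 38.2 and 0.713. SPTSSB, a subunit of the enzyme that starts sphingolipid synthesis, was at 0.117, 22.0 and 0. PHOSPHO1, a phosphatase acting on phosphocholine and phosphoethanolamine, was at 13.0, 113 and 4.43. The actin-binding protein gene NEXN was at 6.22, 46.2 and 1.10, and DPYSL3, of the dihydropyrimidinase-like family, at 6.46, 51.7 and 0.660. RASL11B, a small GTPase, was at 5.08, 63.7 and 3.42. TNNI1 (0.202, 11.7 and 0.214), TSPAN1 (0.230, 10.2 and 0.0407), SPINK4 (0.988, 13.7 and 0.448) and NOXA1 (1.61, 15.1 and 0.976) completed the group. In TNNI1, the slow skeletal muscle troponin I, 1 read in each neighbour leaves the fold over 6 mm between 9.99 and 2334.

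Among the most abundant higher genes, TFPI2, a secreted inhibitor of serine proteases, was at 1182 in 6 mm, 2503 in F5 and 1171 in F1, and was short of the threshold under each of the other scalings. Of all members, the highest FPKM belonged to an entry with no gene name, Novel00781 on chromosome 27 (4434579 to 4441185 as the files give it; the sources used here name no build). It stood at 3741 in 6 mm, 12623 in F5 and 4611 in F1. A further entry without a symbol, ENSGALG00000008936 (chromosome 17, 927031 to 933004), was at 3.79, 184 and 14.7, and the files give it a nucleoside phosphatase domain.

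Clock and cell cycle genes were represented by a few regulators. CRY2, a repressor of the circadian clock, was at 39.1 in 6 mm, 99.0 in F5 and 30.6 in F1, and BHLHE41, which also represses clock genes, at 8.22, 27.6 and 0.816. These were 2 of 16 tested clock entries (12.5%, against 3.21% of all tested genes), and the list's median was 0.45. None was in the lower set, which at 0.632% of all tested genes does not set a list of this size apart. CDK6, a kinase that drives cells out of G1 phase, was at 13.5, 33.9 and 11.5. GADD45B, a stress-induced growth arrest gene whose entry overlaps CARTL, was at 3.15, 47.5 and 20.1, and TP53INP1, a p53 target, at 4.54, 11.2 and 4.44. These were 3 of 16 entries for cyclins D and cell cycle inhibitors (18.8%), the list with the highest share, and none of the 3 passed the threshold under median ratio scaling. CCNE2, an E-type cyclin whose entry overlaps INTS8, was at 1.77, 5.19 and 0.201. It was the only one of 51 DNA replication entries in the higher set (1.96%, against 3.21% of all tested genes). None of 57 mitosis entries was. The medians of these lists, 0.71 for DNA replication and 0.90 for mitosis, were among the highest. They are set against the mean of both neighbours, so a low F1 level alone can raise them. Summed FPKM values were 3033 (6 mm), 3078 (F5) and 1399 (F1) for mitosis, and 1499, 1313 and 399 for DNA replication. By any margin, 4 of 57 mitosis entries and 18 of 51 DNA replication entries were above both neighbours. TNFRSF10B, a death receptor, was at 16.2, 37.0 and 3.88 and was the only member among 20 apoptosis entries (5.0%).

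In the extracellular matrix, COL14A1, a fibril-associated collagen, was at 39.9 in 6 mm, 238 in F5 and 10.6 in F1, 5.96-fold (5.76 to 6.18) and 22.6-fold (21.1 to 24.1) higher. Its entry overlaps an unnamed gene. COL4A3, a chain of basement membrane collagen, was at 110, 251 and 118, and was short of the threshold under each of the other scalings. These were 2 of 46 matrix entries (4.35%, against 3.21% of all tested genes), whose median was -0.36. PAPPA2, a protease that cleaves insulin-like growth factor binding proteins, was at 1.64, 6.54 and 0.351, and SERPINF1, a serpin that inhibits vessel growth, at 18.6, 42.3 and 4.18. PTGR1, which inactivates prostaglandins and leukotrienes, was at 54.2, 119 and 19.2 and was the only member of the ovulation list of 19 (5.26%). EDEM1, which sends misfolded proteins to degradation, was at 55.9, 138 and 53.1. It was the only member among 41 chaperone entries (2.44%, against 3.21% of all tested genes).

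HTRA1, a secreted serine protease, stood furthest below its nearer neighbour in F5 among the named genes. It had FPKM values of 16.4 (6 mm), 0.362 (F5) and 37.2 (F1), 45.4-fold (23.7 to 99.9) and 103-fold (53.8 to 225) lower in F5. TIMP2, an inhibitor of matrix metalloproteinases, was at 75.4, 20.9 and 100.2, ADAMTS3, a procollagen protease, at 3.86, 1.24 and 18.4, and PRSS35, a secreted serine protease-like protein, at 5.67, 0.502 and 12.7. Each was highest in F1. With HTRA1, TIMP2 and ADAMTS3, 3 of 31 entries for extracellular proteases and inhibitors were lower (9.68%, against 0.632% of all tested genes). Another 2 were higher (6.45%, against 3.21%), and the list's median was -0.46. TINAGL1, a matrix protein of basement membranes, was at 5.64, 0.350 and 5.42.

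**Figure D4:**
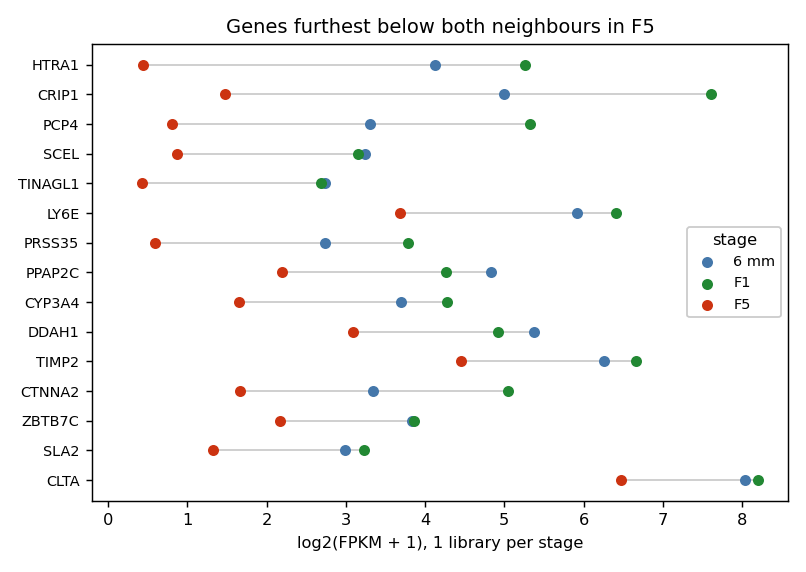
Points give log2(FPKM + 1) in the 6 mm, F5 and F1 libraries (1 library each) for the 15 genes that have a symbol, reach an FPKM of 5 in both neighbours and stood furthest below the nearer neighbour in F5. In HTRA1, CRIP1 and PCP4, F1 is above 6 mm, whereas in SCEL and ZBTB7C the neighbours nearly coincide.

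Among the other genes lowest in F5, CRIP1, a LIM domain protein, had the widest span. It stood at 31.0 in 6 mm, 1.78 in F5 and 193 in F1, 17.4-fold (10.5 to 30.9) and 108-fold (66.5 to 190) lower in F5. PCP4, a modulator of calmodulin, was at 8.86, 0.749 and 39.1, CTNNA2, an alpha catenin of cell adhesion, at 9.11, 2.17 and 32.0, and LY6E, a membrane-anchored protein, at 59.2, 11.9 and 83.7. In these genes F1 was the highest library. Closer to level between the flanks were SCEL (8.46, 0.834 and 7.87), ZBTB7C (13.3, 3.49 and 13.5), SLA2 (6.93, 1.51 and 8.37) and CLTA, a clathrin light chain (261, 87.3 and 292). PPAP2C, a lipid phosphate phosphatase (27.4, 3.60 and 18.1), and DDAH1, which breaks down an inhibitor of nitric oxide synthesis (40.5, 7.48 and 29.3), were highest in 6 mm. Summed endothelial and leukocyte markers were also lowest in F5 (74.6 and 48.6, given above), and their part in these low levels was not tested. CYP3A4 was at 12, 2.13 and 18.3, and its reads could be shared with near copies of the same gene family.

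Immediate early genes respond within minutes to growth signals and to handling of tissue. Of 13 tested entries, 2 were lower in F5 (15.4%, against 0.632% of all tested genes) and none was higher. EGR1 had FPKM values of 6.70 (6 mm), 0.342 (F5) and 3.89 (F1), 19.6-fold (11.01 to 38.4) and 11.4-fold (6.30 to 22.6) lower. With a pseudocount of 5, EGR1 fell short of the threshold. JUN was at 61.8, 25 and 57.2. The list's median was -0.57, and 6 of the 13 entries were below both neighbours by any margin, 1 above. The time from dissection to freezing is not recorded in the sources used here. In other lists, none of 65 cytosolic ribosomal protein entries and none of 47 respiratory chain entries was in either set, with medians of -0.28 and 0.17. Nor was any of 15 entries for the amino acid stress response or of 6 zona pellucida entries. At the shares of all tested genes, 3.21% higher and 0.632% lower, empty lists of 15 or 6 entries do not stand apart. Those of 65 and 47 entries do not clearly stand apart either.

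**Figure D5:**
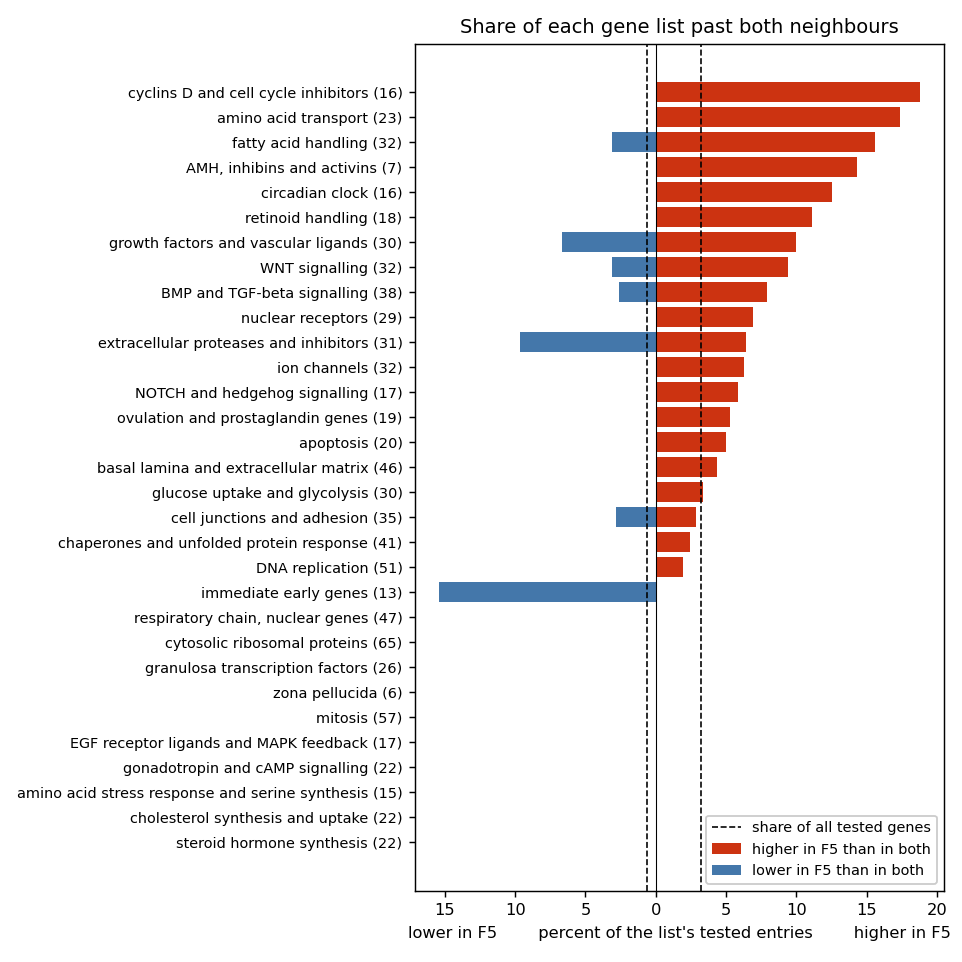
For each gene list (number of tested entries in brackets), bars to the right give the percent of entries at least 1 log2 unit higher in F5 than in both neighbours, and bars to the left the percent lower. Dashed lines mark the shares over all 12812 genes, 3.21% and 0.632%. In lists of this size a single gene moves the bar by several percentage points.

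Some genes of the higher set lay next to each other. In the order of all genes with a value along each chromosome or scaffold, 351 higher genes had at least 1 directly adjoining gene among the tested ones, and 82 of them adjoined another higher gene. Counted by position, 570 positions beside a higher gene held a tested gene, and 90 of these (45 pairs, each seen from both sides) held another higher gene, or 15.8% against 3.21% of all tested genes. Of the 45 pairs, 1 overlapped, and in 18 both entries had a symbol. An entry named A2ML1 adjoined another of the same name. Whether adjoining entries are parts of a single gene was not tested, so the share need not count separate genes. The longest run held 5 genes on chromosome 5 between 23200237 and 23264618: GYLTL1B (35.99 in 6 mm, 197.5 in F5 and 33.6 in F1), an entry without a symbol, PEX16 (31.3, 76.2 and 20.9), MAPK8IP1 (9.75, 39.2 and 8.81) and CRY2. In each of its 4 genes with a symbol, 6 mm and F1 lay closer to each other than to F5. A further run on chromosome 17 held NOXA1, ENTPD8 and ENSGALG00000008936, of which ENTPD8 encodes an ectonucleotidase (0.384, 7.03 and 0.814). CEL ended a run that also held GFI1B (0.242, 1.73 and 0.205), a transcriptional repressor. Adjacent pairs included CYP26A1 with CYP26C1, CCNE2 with TP53INP1, NHEJ1 with IHH, and SLC5A5 with JAK3. Among the lower genes, CAV1 and CAV2, which encode the coat proteins of caveolae, lay 6773 bases apart on chromosome 1. CAV1 was at 22.8 in 6 mm, 0 in F5 and 1.42 in F1, and CAV2 at 1.96, 0.153 and 1.96. Genes named here outside the naming rule were picked after their values were seen. Whether reads of unannotated ends run into the adjoining gene was not tested.

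The 15 higher genes on chromosome Z made up 3.65% of the set, against 4.36% of tested genes, and the 10 lower genes there 12.3%. Entries on unplaced scaffolds were 11.2% of the higher genes (46) and 9.35% of tested genes. Of the higher genes 261 had a symbol (63.5%), and of the lower genes 67 (82.7%), against 76.0% of all tested genes.

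The threshold lay within a continuum of values. Just inside it, among genes that reach an FPKM of 10, stood FKBP10 (136 in 6 mm, 273 in F5 and 88.1 in F1, a distance of 1.00 log2 units to the nearer neighbour), EIF4EBP2 and SLC12A2 (both 1.01). Just outside stood NPNT (24.6, 50.05 and 16.6, a distance of 0.99), SLC20A1 and SLC16A1 (both 0.99). On the lower side LPL (-1.02) and EPB41L3 (-1.03) were inside, and MARCH3 (-0.99), NOS1AP (-0.97) and TRANK1 (-0.95) outside. By any margin, 4125 genes were above both neighbours and 1524 below both.

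The share of higher against lower genes depended on how the libraries were scaled. In F1 a single gene, ZP3, took 13.4% of the library's reads, and the median F5 difference from the mean of its neighbours over all tested genes was 0.17. Under median ratio scaling that median became -0.02 and the sets held 288 higher and 102 lower genes, and under upper quartile scaling 288 and 107. Higher genes were then 73.8% and 72.9% of those called, against 83.5% as reported. All 78 named entries kept their direction in the 623 values computed under other pseudocounts, filters and scalings. Their choice fixed this in advance, since each lay at least 1 log2 unit past both neighbours. No setting tried could reverse a difference of that size. Of these genes, 12 fell short of the threshold under at least 1 other scaling: COL4A3, TFPI2, TP53INP1, SLC7A3, KCNK5, EDEM1, GADD45B, NRG1, CDK6, PTGR1, SERPINF1 and TNFRSF10B. This check covered only entries named for their distance, abundance or place in a list. Other genes printed here, among them LPL and the sulfotransferase genes given below, were not part of it.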

How the data were processed

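The authors deposited FPKM values per gene, with gene names, positions and function annotations, for 3 libraries of hen granulosa cells, 1 per stage. Per the labels' protocols, messenger RNA was selected by its poly-A tails and primed with random hexamers. Per the submitters' processing notes, TopHat2 version 2.0.12 and HTSeq version 0.6.1 were used. The genome build and whether counting used strand are not given in the sources used here. Each file held 19309 genes with a value, and 2 lines without one were left out.

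From the steps between FPKM values the library totals were recovered (largest relative deviation 5.0e-15), and from them each gene's smallest whole number of reads, which summed to 94.7%, 93.8% and 94.8% of the totals for 6 mm, F5 and F1. Exact 95% intervals of FPKM ratios come from these reads, and a gene without reads has a floor of 3 reads per library. Both cover counting error only. Differences are of log2(FPKM + 1), with a pseudocount of 1, which understates the change of low genes, for genes that reach an FPKM of 1 in any library. A list's median is that of the F5 value minus the mean of both neighbours.

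The members and the gene lists were chosen with earlier results of these data known. Named were, among members with a symbol, the 25 furthest above (FPKM at least 10 in F5), the 15 furthest below (FPKM at least 5 in both neighbours), the 5 most abundant, up to 4 per list, and the 3 genes nearest to each side of the threshold. Some genes that this rule takes are not reported here. Symbols come from the files, checked against the RefSeq gene table of another assembly, GRCg7b. The name EBP was dropped from an entry for which the files give a basic-leucine zipper domain. The steps were tested on simulated data. Python 3.11.15, numpy 2.4.6, pandas 2.3.3, scipy 1.17.1 and matplotlib 3.10.9 were used. Alternatives were other pseudocounts, filters, scalings and distances, and counting intervals.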

Additional observations from a re-analysis of the deposited data

How the results depend on the processing

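The counts of genes set apart in F5 were 411 higher and 81 lower. With a pseudocount of 0.1 they were 624 and 214, with a pseudocount of 5 they were 170 and 24, with a distance of 2 log2 units 81 and 9, and against the mean of both neighbours 1039 and 420. Without a filter on low values they were 411 and 81, and with an FPKM of at least 5 they were 310 and 63. Scaled to the same FPKM sum they were 337 and 90, and with totals without the 10 most abundant genes 306 and 104. With counting intervals away from 1 they were 371 and 74. Of the 411 higher genes, 264 were also called under median ratio scaling, and of the 81 lower genes 64. Of the 77 genes covered by the check on named entries, 53 were called under each of the 8 other pseudocounts, filters and scalings. The other 24 were lost under at least one of these. No paired analysis was possible because each stage has 1 library, and for the same reason no library could be left out. Depth limits low genes: 101 of the 411 higher genes had an FPKM under 5 in all libraries. Over all 12812 tested genes, 3427 did, a similar share.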

Other observations

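Beyond the lists above, members were grouped by the function terms that the files give, after their values were seen, so the counts are descriptions. Of 31 tested genes with the term sulfotransferase activity, 6 were higher in F5 than in both neighbours (19.4%, against 3.0% of all genes with a term of this kind), and an entry without a symbol was lower. NDST1, which sulfates heparan chains, had FPKM values of 31.2 (6 mm), 218 (F5) and 107 (F1), and HS3ST1, which adds a later sulfate to heparan, at 4.86, 12.9 and 0.509. CHST12 and CHST3, which sulfate chondroitin, were at 18.3, 65.0 and 13.2 and at 1.05, 9.23 and 3.88. CHST2 was at 5.70, 34.8 and 15.9 and GAL3ST4 at 5.22, 49.5 and 22.5. PAPSS2, which makes the sulfate donor of these enzymes, was at 6.24, 31.9 and 6.28. In NDST1, CHST3, CHST2 and GAL3ST4, F5 stood only slightly more than 1 log2 unit above F1. Median ratio scaling multiplied F5 by 0.890 and F1 by 1.37, so these sulfotransferase genes fall short of the threshold there. Heparan and chondroitin sulfates are sugar chains of the cell surface and matrix.

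Genes of peroxisomes, where very long-chain fatty acids are shortened, gave 5 of 72 higher (6.94%, against 2.81%). They were ABCD2 (3.92 in 6 mm, 17.6 in F5 and 3.94 in F1), ACAA1 (11.04, 36.5 and 12.3), ACOX2 (6.21, 19.2 and 3.21), EHHADH (2.17, 16.2 and 6.89) and PEX16. With the factors of median ratio scaling given above, ACAA1 and EHHADH fall short of the threshold against F1. Single members of heme and iron handling, picked after their values were seen, were as follows: ALAS1, the first enzyme of heme synthesis, was at 25.4, 246 and 72.8, the heme exporter gene FLVCR1 at 5.50, 16.6 and 5.57, and SLC25A37, which carries iron into mitochondria, at 9.25, 20.8 and 5.31. CD38 and BST1, adjacent genes on chromosome 4 whose products consume NAD, were at 13.0, 57.1 and 6.72 and at 3.95, 31.8 and 12.8. FLVCR1 and BST1 likewise fall short against F1 with the factors of median ratio scaling. Of 50 tested genes with the term basement membrane, 5 were lower in F5 (10.0%, against 0.696%) and COL4A3 was higher, whereas none of the 46 entries of the basal lamina and matrix list was lower. The 5 included the laminin receptor gene DAG1 (206, 81.0 and 287), VWC2 (9.97, 3.11 and 55.8) and CCDC80 (6.33, 0.0191 and 1.72).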
